A study of Drosophila melanogaster with 3 samples.

Results

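ftz-f1 encodes an orphan nuclear receptor of the fruit fly, and its binding by the zinc finger protein Lola-RI was examined in peak lists from chromatin immunoprecipitation with sequencing (ChIP-seq). The gene was selected on its score rank in these lists, so its ranks and counts are given as a description with no test. Its members were all peaks whose summit, the base of highest signal that the authors gave each peak, lay in the gene or within 5000 bp of it. There were 14 such summits of 9202 in the list kept by the authors' irreproducible discovery rate (IDR) threshold, and 42 of 30000 in the list called on the pooled replicates. The separate lists of replicates 1, 2 and 3, each of 30000 peaks, held 36, 35 and 49.

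Whole wandering larvae in the third instar, males and females together, came from a transgenic line that stably expressed Lola-RI fused at the C terminus to the green fluorescent protein eGFP. Lola-RI is an isoform of the BTB zinc finger transcription factor Lola. Per the labels, sonicated fragments of 200 to 800 bp were precipitated with an antibody against GFP, although their antibody field names lola. There were 3 biological replicates in 1 group and no comparison group, and the sources used here do not name the promoter that drives the fusion protein. In whole larvae, binding in few cells and weak binding in many cells cannot be told apart.

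FTZ-F1 is a nuclear receptor that binds DNA as a monomer. Its long form, αFTZ-F1, is supplied to the egg and acts with the homeodomain protein Ftz in segmentation of the embryo. Its short form, βFTZ-F1, appears in a brief window of the mid-prepupa, after the steroid hormone ecdysone has fallen, and makes tissues competent to answer the next ecdysone pulse. The receptor Hr3 induces that expression, while Eip75B and Blimp-1 delay it. The wandering larvae sampled here precede that window.

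On the release 6 genome (dm6), ftz-f1 spans chr3L:18750607-18801309 on the minus strand, 50703 bp, with the same span in the Ensembl and RefSeq annotations. The long transcript ftz-f1-RB starts at 18801309, has 10 exons and encodes 1027 residues. The short transcripts ftz-f1-RC and ftz-f1-RD start 35565 bp further along, at 18765744, and ftz-f1-RA starts another 788 bp on, at 18764956. ftz-f1-RC, ftz-f1-RD and ftz-f1-RA encode 803, 853 and 803 residues. ftz-f1-RB and ftz-f1-RA share 1886 coding bases, while 1195 are found in ftz-f1-RB and not in ftz-f1-RA. The gene therefore has a long promoter and, inside intron 2 of the long transcript, a pair of short promoters. The long non-coding RNA lncRNA:CR45939 starts 3 bp upstream of ftz-f1-RB on the same strand, so a peak at the long promoter cannot be assigned to either.

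The sequences shown are at the highest-scoring IDR summits of the gene outside untranslated exons, and at its short promoter. The summit at +703 bp, which lies in an untranslated part of exon 1, is therefore not shown. All are from the RefSeq release 6 genome, read 5′ to 3′ on the minus strand, the strand of ftz-f1. Capitals mark matches, on either strand, to the motifs described after them. The upstream stretches end at the base before the start site. The other pair are centred on the highest-scoring summit of intron 2 and on the next of that intron.

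Upstream of ftz-f1-RB, chr3L:18801310-18801609: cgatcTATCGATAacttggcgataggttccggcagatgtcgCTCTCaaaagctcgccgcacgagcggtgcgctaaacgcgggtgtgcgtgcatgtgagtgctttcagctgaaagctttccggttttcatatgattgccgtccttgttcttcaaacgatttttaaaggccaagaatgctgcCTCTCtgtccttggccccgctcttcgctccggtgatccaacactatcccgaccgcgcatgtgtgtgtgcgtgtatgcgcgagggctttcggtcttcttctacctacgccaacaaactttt
Upstream of ftz-f1-RC and ftz-f1-RD, chr3L:18765745-18766044: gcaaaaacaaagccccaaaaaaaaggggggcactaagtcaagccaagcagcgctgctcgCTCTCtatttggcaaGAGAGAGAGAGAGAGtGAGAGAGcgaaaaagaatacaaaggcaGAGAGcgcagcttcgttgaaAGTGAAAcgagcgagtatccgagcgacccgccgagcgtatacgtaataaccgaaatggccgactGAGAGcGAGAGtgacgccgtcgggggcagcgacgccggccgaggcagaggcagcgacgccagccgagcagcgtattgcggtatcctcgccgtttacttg
Intron 2 summit at +9918, chr3L:18791291-18791491: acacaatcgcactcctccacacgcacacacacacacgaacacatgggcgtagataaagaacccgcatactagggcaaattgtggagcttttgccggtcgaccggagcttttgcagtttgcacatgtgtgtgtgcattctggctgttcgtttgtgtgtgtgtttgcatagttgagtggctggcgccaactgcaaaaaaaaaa
Intron 2 summit at +11615, chr3L:18789594-18789794: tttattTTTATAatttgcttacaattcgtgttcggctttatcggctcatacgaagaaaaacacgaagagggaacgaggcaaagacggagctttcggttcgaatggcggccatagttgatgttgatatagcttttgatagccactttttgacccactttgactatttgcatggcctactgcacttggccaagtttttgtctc

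The IDR summit of the long promoter is base 75 of its sequence, and that of the short promoter is base 55. GC content was 53.0% upstream of the long transcript, 56.7% upstream of the short ones, and 49.3% and 41.8% at the intron 2 summits. GAGAG, the letters bound by GAGA factor, had 2 matches upstream of the long transcript and 12 overlapping matches upstream of the short transcripts. Of 19253 stretches of the same length upstream of annotated start sites, 32.5% held GAGAG at least once and 0.462% held it 12 times or more. TATCGATA, the DNA replication-related element (DRE), had 1 match upstream of the long transcript, against 7.49% of all upstream stretches with any. AGTGAAA, a core of sites of the repressor Blimp-1, had 1 match upstream of the short transcripts, against 8.67%. A match describes letters and is not a mapped site.

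The highest-scoring summit of ftz-f1 lay just upstream of the long promoter, at position 18801535, −226 bp from the start of ftz-f1-RB. It ranked 3 in replicate 1, 8 in replicate 2 and 3 in replicate 3 among 30000 peaks, a mean rank of 4.67 ± 2.89 (SD, n = 3). In the pooled and IDR lists it ranked 4. The summit was at −221, −226 and −229 bp in the 3 replicates, a spread of 8 bp. All replicates therefore placed it among their 8 highest peaks and within a few bases of the same point. Over the genome, the 5109 IDR summits within 500 bp of a start site had a median position of −72 bp, and 19.3% lay more than 200 bp upstream.

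A further pair of summits followed inside exon 1 of the long transcript. The summit at +703 bp, in the 5′ untranslated part of exon 1, ranked 355, 296 and 371 in replicates 1, 2 and 3, with all replicates at the same base. The summit at +496 bp ranked 1744, 2440 and 2350. They shared 1 interval of 2142 bp, chr3L:18799900-18802041, with the summit upstream of the start site. Of 8168 distinct IDR intervals, whose median width was 433 bp, 74 (0.906%) were as wide or wider. The 3 summits were 722 and 207 bp apart. The spacing of 207 bp is near the limit of the authors' calling, since no pair of summits in an interval lay closer than 199 bp in any list.

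The short promoters, which give rise to βFTZ-F1, held a far lower-ranked peak. The IDR summit lay −246 bp from the start of ftz-f1-RC and ftz-f1-RD and ranked 7065. In replicates 1 and 2 the summit lay at −274 and −232 bp and ranked 7290 and 7713. Replicate 3 had a pair of summits there, at −132 bp with rank 6235 and at −353 bp with rank 21720. The best rank at these start sites was thus between 6235 and 7713 in every replicate, while its position was the least reproducible of all IDR sites in the gene, with a spread of 121 bp when the nearest summit was taken. Within each replicate the long promoter ranked above the short promoters.

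**Figure D1:**
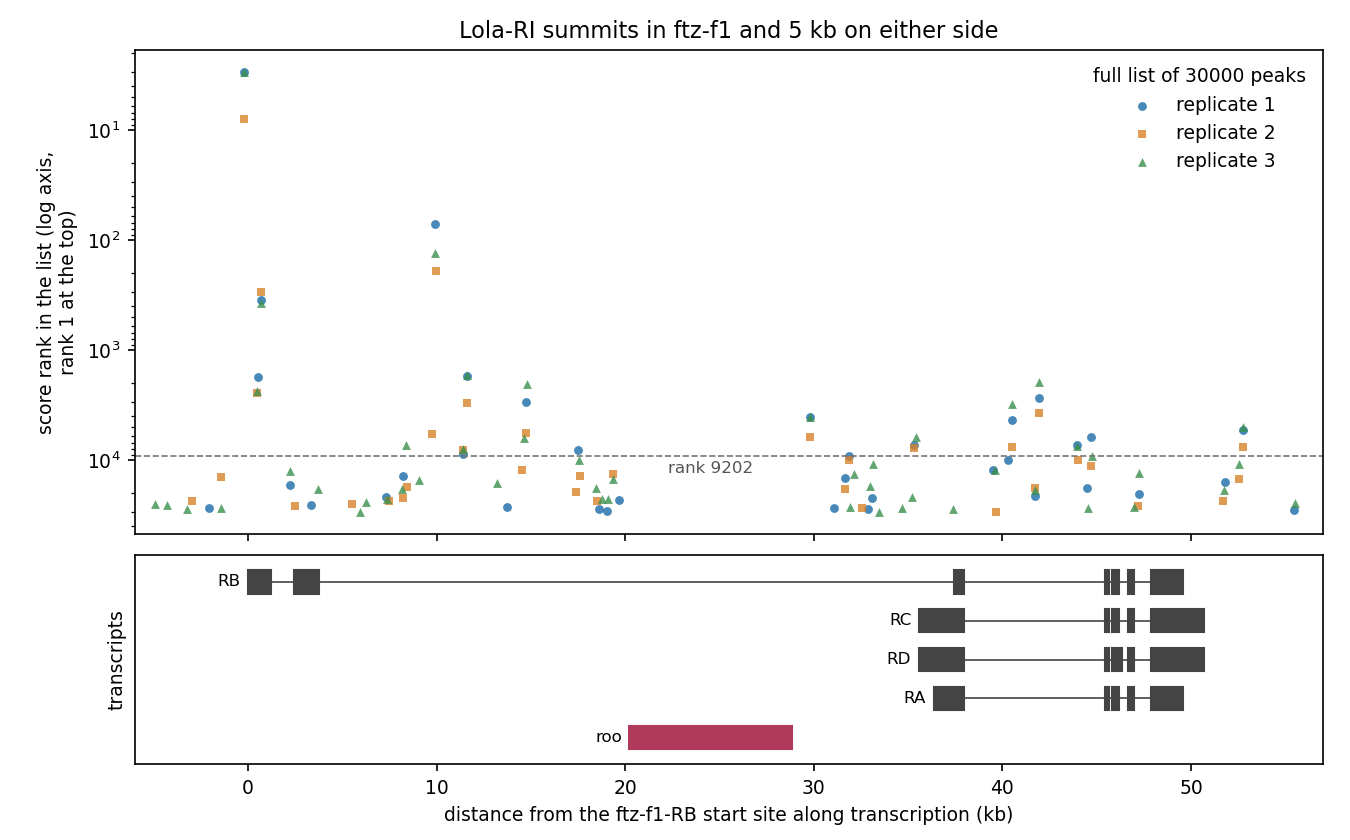
Each point is a summit in ftz-f1 or within 5 kb of it, by its distance from the ftz-f1-RB start site along transcription (horizontal, kb) and its score rank in the list of that replicate (vertical, log axis, rank 1 at the top); the dashed line is rank 9202, the length of the IDR list, and boxes below are exons and the roo element. The replicates coincide at −226 bp with ranks 3, 8 and 3, and no summit lies over the roo element.

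Between the promoters, the long intron 2 of ftz-f1-RB carried 6 IDR summits in 31.8 kb, that of the short promoter among them. The highest-scoring was at +9918 bp, position 18791391, and ranked 72, 190 and 131 in replicates 1, 2 and 3 (131 ± 59.0, SD, n = 3). It was the second site of the gene in every replicate, ahead of the exon 1 summit at +703 bp, which was the third in every replicate. Its interval was 1858 bp wide, and 125 of the 8168 IDR intervals were as wide. It is 9918 bp from the long start site and lies in no exon of ftz-f1. The span of lncRNA:CR45939, chr3L:18772086-18801312, also covers this site and those at +11615, +11407 and +14772 bp. It covers the exon 1 summits at +496 and +703 bp as well.

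The rest of intron 2 held 4 more IDR sites apart from the short promoter. The site at +11615 bp ranked 1715, 3046 and 1693 in replicates 1, 2 and 3. Its neighbour at +11407 bp ranked 8852, 8073 and 7894. These shared an interval of 605 bp.

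The site at +14772 bp ranked 2997, 5731 and 2045, and its summits were spread over 97 bp. The site at +29807 bp ranked 4068, 6171 and 4040, spread over 24 bp. The ranks of all 4 of these sites were below those of the long promoter summit, the +703 bp summit and the +9918 bp site in all replicates.

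Intron 3, downstream of the short promoters and common to the long and short transcripts, held 4 IDR sites in 7.46 kb. The highest, at +41927 bp, ranked 2758, 3717 and 1962 in replicates 1, 2 and 3, and the next, at +40504 bp, ranked 4307, 7637 and 3130. Those at +43982 and +44728 bp ranked 7347, 9914 and 7444, and 6128, 11339 and 9218. Replicate 2 gave each of these 4 sites its lowest rank of the 3 replicates.

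A last IDR site, at position 18748561, lay downstream of ftz-f1 and ranked 5399, 7604 and 5068. It is within 500 bp of the start sites of Atg3, which encodes an enzyme of autophagosome formation, and of Nufip, which lie head to head. It belongs to the window of ftz-f1 by the rule and not to its promoters.

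**Figure D2:**
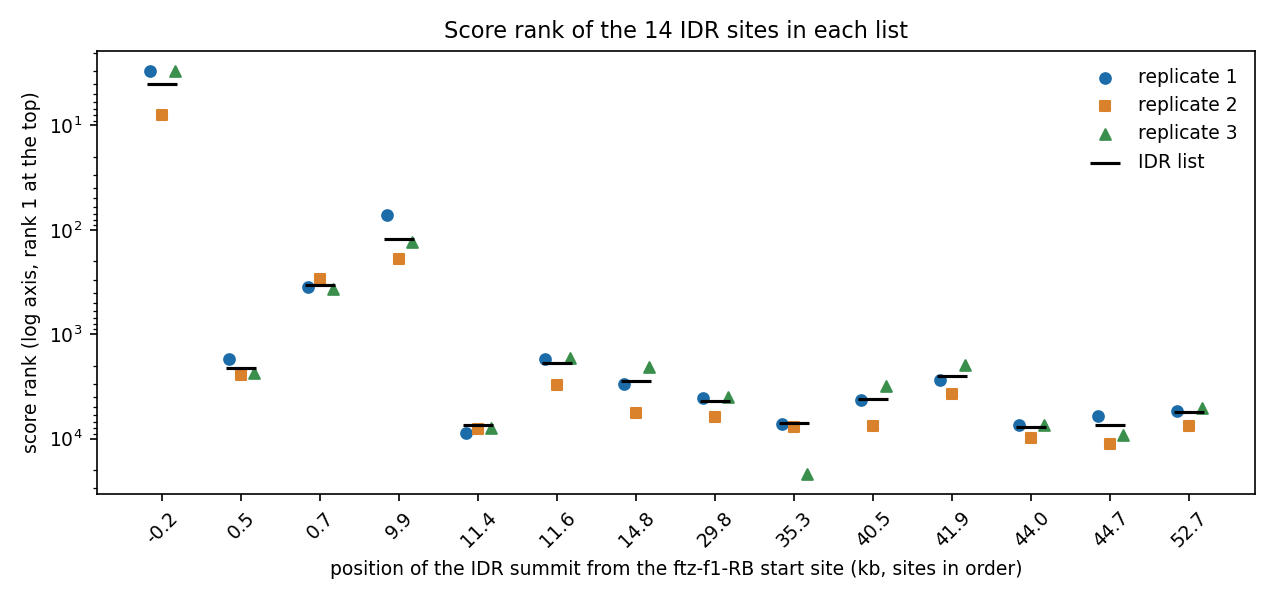
Score rank (vertical, log axis, rank 1 at the top) of the 14 IDR sites of ftz-f1, ordered along transcription and labelled by position from the ftz-f1-RB start site in kb; coloured points are replicates and black bars the IDR list. The sites at −226, +9918 and +703 bp hold the 3 highest ranks in every replicate, and at the short promoter the nearest summit of replicate 3, shown here, ranks 21720, while its best summit there ranks 6235.

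By annotation class, 4 of the 14 IDR summits lay within 500 bp of a start site, 3 of them at ftz-f1 itself. Of all 9202 IDR summits, 5109 lay that close to a start site. In the window, 1 IDR summit lay in a 5′ untranslated exon, 9 in introns and none in a coding exon. No share over all IDR summits is given for these classes, so their counts only describe the window. In the full lists of replicates 1, 2 and 3, and with the flanks included, promoter summits numbered 6, 6 and 9 and intron summits 27, 24 and 32. Coding exons held 2, 2 and 6, most of them in the flanking genes: inside ftz-f1 they were 1 in replicate 1, 0 in replicate 2 and 2 in replicate 3. Intron 2, from exon 2 to the short promoters, held 18, 19 and 26 summits in 31.8 kb, intron 3 held 8, 6 and 7, and the exon 1 stretch held 2 in each replicate. From exon 4 to the end of the gene, the replicates held 1, 1 and 2 summits, the best of rank 13201, and no IDR summit. These lie within 500 bp of the start of lncRNA:CR45938, a non-coding RNA inside ftz-f1, and so were classed as promoter summits.

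**Figure D3:**
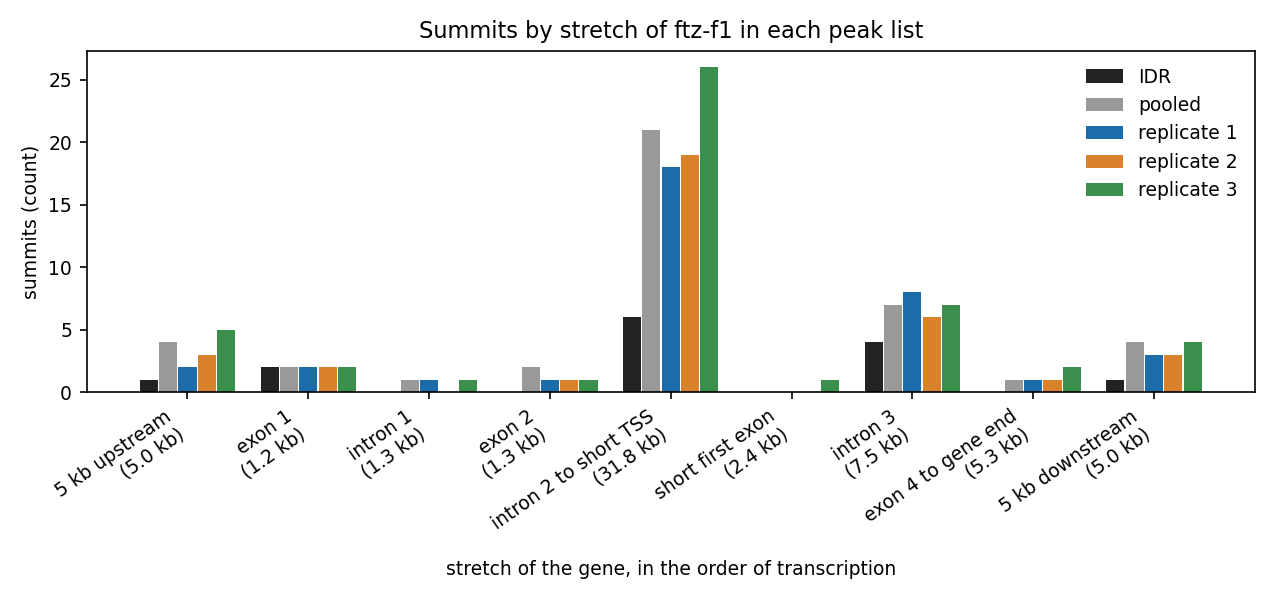
Bars count summits in successive stretches of ftz-f1 (horizontal, in the order of transcription, with lengths in kb) in the IDR list, the pooled list and the 3 replicate lists. Intron 2 up to the short promoters holds 6 IDR summits and 18 to 26 replicate summits, and exon 4 to the gene end holds none in the IDR list.

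Intron 2 also had a stretch of 10460 bp with no pooled summit, from 18771502 to 18781962, and of 10134, 10449 and 10446 bp in replicates 1, 2 and 3. It surrounds an annotated copy of the transposable element roo, chr3L:18772464-18781086, of 8623 bp. Of 112 roo copies of 5000 bp or more on the analysed arms, none held an IDR summit and 1 held any pooled summit. Pooled summits lay in them at 7.64 per Mb, against 224 per Mb over the arms. The sources used here do not say how reads that match several copies were treated, so missing summits there do not show missing binding.

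All 14 IDR sites had a summit within 150 bp in each of the 3 replicates, with a median spread of 19.5 bp between the replicate summits. Over all 9202 IDR peaks, 91.9% had a summit in each replicate and the median spread was 40 bp. Of the 100 highest-scoring IDR peaks, all had one in each replicate and the median spread was 12 bp, beside the 8 bp of the −226 bp summit. Among the 28 pooled sites of the window that missed the IDR list, 9 were in 3 replicates, 12 in 2, 6 in 1 and 1 in none, with a median spread of 78.0 bp for the 9. In replicate 1, a single summit was the nearest for both of 2 neighbouring pooled sites at 2 places, so these counts do not all stand for separate peaks. The last site inside the IDR list, at +43982 bp, had pooled rank 7738, and the next pooled site, at position 18783787, had rank 9550, just beyond the 9202 peaks of that list. It ranked 8038, 13958 and 9928 in the replicates.

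Most of the lower-ranked sites lay in intron 2, which takes up 31.8 of the 60.7 kb of the window. At +31859 bp, between the roo element and the short promoters, the nearest summits ranked 9200, 9928 and 26769 in replicates 1, 2 and 3. Replicate 3 also had a summit at +32155 bp with rank 13368, too far away to count as the same site. The rank of 26769 thus depends on taking the nearest summit and does not by itself set replicate 3 apart. At +8369 bp the ranks were 13984, 17793 and 7354, and at +7359 bp 21657, 23622 and 22486. The replicate 1 summits of these sites were also the nearest for the pooled sites at +8169 and +7155 bp. In intron 3, the site at +39564 bp ranked 12412, 29479 and 12238, with replicate 2 near the end of its list.

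Upstream of the long promoter, the 3 pooled sites at −1445, −3094 and −4214 bp had pooled ranks of 24456, 28198 and 28869 and were in no more than 2 replicates. Replicate 1 had no summit within 150 bp of any of them. Beyond the interval at the start site, the upstream 5 kb therefore held no site found in every replicate. Intron 1 had a pooled site at +2228 bp, which ranked 16787 in replicate 1 and 12732 in replicate 3 and was not matched in replicate 2. The pooled site at +5316 bp, of rank 29819, was matched in no replicate.

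The replicates also held summits of ftz-f1 that lay more than 150 bp from any pooled summit, 7 in replicate 1, 3 in replicate 2 and 11 in replicate 3. Their best ranks were 9930, 5775 and 13368. The summit of rank 5775, at +9734 bp, shared an interval with the replicate 2 summit of the +9918 bp site. These summits are therefore not all separate peaks. When each replicate list was shortened to its 9202 highest-scoring peaks, the window held 16, 13 and 15 summits (14.7 ± 1.53, SD, n = 3), against 40 ± 7.81 for the full lists. Among the 1000 highest-scoring peaks, every list held 3. The replicates thus held the same number among their 1000 highest peaks, and replicate 3 added the most below rank 9202.

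Of 13945 protein-coding genes, 64% had at least 1 IDR summit in the gene extended by 5000 bp, 34% had a promoter summit, and 0.28%, which is 39 genes with ftz-f1 among them, had 14 or more. Among the 231 genes of 40 to 60 kb, the median was 3 IDR summits and 9 genes had 14 or more. In the IDR list 2 genes had a better promoter rank than ftz-f1, and the median promoter rank of the 4743 genes with a promoter summit was 3845. Since ftz-f1 was chosen for this pattern, its place among the genes is a description. The protein-coding genes whose promoter ranks were nearest to its own, by Euclidean distance of log10 rank over the 3 replicates among 5825 genes, were Adk3 (0.322), mthl10 (0.567), SLC5A11 (0.571), CG6426 (0.616) and Gapdh2 (0.768). Adk3, named for an adenylate kinase, ranked 2, 5 and 2 in replicates 1, 2 and 3, and Gapdh2, a gene of the glycolytic enzyme glyceraldehyde-3-phosphate dehydrogenase, ranked 9, 3 and 8. All 5 had promoter ranks of 10 or better in every replicate. Without replicate 2, IntS6 took the place of Gapdh2.

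Among genes of the nuclear receptor family, ftz-f1 had the second-best promoter rank in every replicate. Eip75B, the receptor that represses Hr3 activity and so delays ftz-f1, ranked 1, 1 and 1 in replicates 1, 2 and 3, and held 40 IDR summits. Hnf4, a receptor of fat metabolism, ranked 105, 144 and 89. Eip78C, an early ecdysone-response receptor gene, ranked 196, 150 and 150.

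The other receptor genes ranked lower. EcR, which encodes the ecdysone receptor, ranked 2474, 1754 and 1184, and usp, its partner, ranked 4079, 4356 and 6655. Of the 21 receptor genes, 10 had an IDR promoter summit, 9 of 20 without ftz-f1, and the median IDR rank of the 10 was 1956.5. A share of 47.6% stands beside the 34% of all protein-coding genes.

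**Figure D4:**
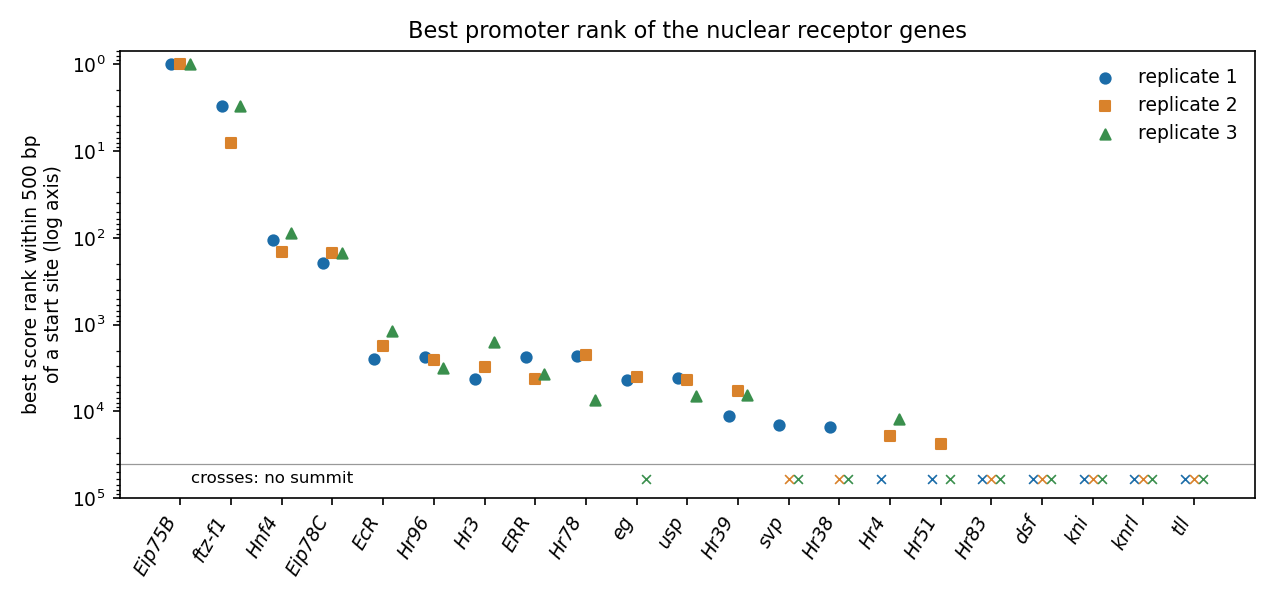
Points give the best score rank of a summit within 500 bp of a start site (vertical, log axis, rank 1 at the top) for the 21 nuclear receptor genes in the 3 full replicate lists, ordered by mean rank; crosses under the line mark lists with no such summit. Eip75B ranks 1 in all replicates and ftz-f1 3, 8 and 3, while Hr83, tll, dsf, kni and knrl have no promoter summit in any.

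Of the 6 genes known to act on ftz-f1 expression, 4 had an IDR promoter summit, beside 34% of all protein-coding genes. Eip75B had IDR promoter rank 1, EcR 1544, Hr3, the direct activator of ftz-f1, 2369, and usp 4842. Hr3 ranked 4257, 3071 and 1587 in replicates 1, 2 and 3. Hr4 and Blimp-1 had no IDR promoter summit, but held 17 and 4 IDR summits in the gene and its flanks, where 64% of all protein-coding genes had at least 1.

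Of the 10 genes listed as targets, 4 had an IDR promoter summit, a share of 40% beside the 34% of all genes. These were Eip75B, the early ecdysone gene Eip74EF at IDR rank 612, the alcohol dehydrogenase gene Adh at 2221 and br, which encodes the Broad zinc finger proteins, at 3318. The ecdysone synthesis genes phtm (phantom) and dib had no IDR summit. Eip93F, a gene of larval tissue death, had none at its promoter and 1 in its window, as did the cuticle gene Edg78E. The cuticle gene Edg84A and the segmentation gene ftz had no summit in any list.

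Of 6 partner genes, 3 had an IDR promoter summit, beside 34% of all protein-coding genes. gce, which encodes a juvenile hormone receptor, had IDR rank 365 and replicate ranks of 401, 527 and 331. The coactivator gene tai had IDR rank 3277 and mbf1, whose product bridges FTZ-F1 and the general transcription machinery, 5432. Met, the paralog of gce, and bon had no IDR promoter summit. Met had promoter ranks of 17593, 11581 and 12733 in replicates 1, 2 and 3, and bon of 11451, 9234 and 8607. Of the 30 ecdysone cascade genes, 18 had an IDR promoter summit (60%), as did 17 of the 29 without ftz-f1 (58.6%), beside the same 34%. The lists overlap, since Eip75B is in 4 of them, so their counts are not independent.

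In windows of 101 bp centred on the 14 IDR summits, GAGAG was found in 5, against 16.5% of all 9202 IDR windows. TATAAA, the TATA box, was found in 3, against 16.9%. AGGTCA, the core nuclear receptor element, was found in 1 (1.75% of all), and its extended form AAGGTCA, which contains it, in none (0.782%). The AGGTCA match lay in the window of the +41927 bp site in intron 3, which also held the E-box CACGTG (1.06% of all). The DRE, the AP-1 site TGACTCA and AGTGAAA were found in none of the 14 windows, against 1.52%, 0.978% and 2.88%. Windows around 14 summits of a single gene are too few to set these counts apart from the shares of all windows.

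Of the genes around ftz-f1, lncRNA:CR45939 had the same IDR promoter rank of 4, since their start sites lie 3 bp apart. The protein-coding genes around ftz-f1 ranked far lower or had no IDR promoter summit. CG14073, whose end lies 956 bp upstream of ftz-f1, had no IDR promoter summit and 3 IDR summits in its body. Cat, which encodes catalase, had IDR promoter rank 3381, beside a median of 3845 for all protein-coding genes with a promoter summit. MED11, HipHop and CG6885 had no IDR promoter summit, where 34% of all protein-coding genes had one. At the edges of the window, the IDR summit nearest inside on the downstream side was 2954 bp from the edge with rank 5554, and the nearest outside was 1754 bp beyond it with rank 1660. On the upstream side the nearest inside was the −226 bp summit, 4774 bp from the edge, and the nearest outside was 6156 bp beyond it with rank 8246.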

How the data were processed

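Lola-RI-eGFP ChIP-seq peaks of 3 replicates of wandering larvae were used as deposited on dm6. Per the deposited text descriptions, the authors called peaks in each replicate and on the pooled replicates against a control, and kept an IDR list. Neither the labels nor the descriptions used here name the aligner, caller or IDR threshold. The control library was not analysed here. The authors' deposited score has no stated scale and served to order the peaks of each list. The −log10 q value in the deposited lists stood at its ceiling for all 14 IDR peaks of ftz-f1 and was not ranked. The 9202 IDR peaks were the 9202 highest-scoring pooled peaks. The lists give no read counts, so depth is unknown. Peaks are not replicates.

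Summits were placed on Ensembl release 115 gene models, and sequence was read from the RefSeq release 6 genome (Python 3.11.15, pandas 2.3.3, NumPy 2.4.6). A promoter was 500 bp on either side of a start site, a site was a summit with the nearest replicate summit within 150 bp, and a summit in several classes was counted in the promoter, then in a UTR or coding exon, then in an intron. Counting was tested on simulated data. Members, gene lists and motifs were chosen with earlier results of these data known. Named genes are those of the lists, the neighbours and the 5 genes nearest in promoter rank. The listed phm was taken as phtm by hand, since several genes share the synonym phm. The sequence at the short promoter was chosen after its values were seen. Alternatives were other window and promoter widths, shortened lists, other site distances, ranking by width, and leaving out each replicate.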

Additional observations from a re-analysis of the deposited data

How the results depend on the processing

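Of 75 alternative values over 14 results, 70 stayed close to the values reported and 5 moved. Close meant within a fixed ratio for counts and within 1 SD over the replicates for the best rank. Close values still included 17 pooled sites found in all replicates with summits within 75 bp, and 32 by interval overlap, in place of 23. Leaving out a replicate could not lower a count of sites found in all lists, nor move the mean best rank beyond 1 SD. Those comparisons therefore say little about stability. With the higher-scoring 50% of the IDR list, 9 summits remained in the window in place of 14. Shortening the lists to 9202 peaks gave 14 pooled summits in place of 42, a replicate mean of 14.7 in place of 40, and 12 pooled sites found in all replicates in place of 23; fewer peaks entered by construction. Ranking by interval width gave a mean best rank of 139 in place of 4.67, from 94, 145 and 179 in replicates 1, 2 and 3. Leaving out each replicate gave a mean of 35.5 to 42.5 summits and a mean best rank of 3 to 5.5, the 3 being without replicate 2. It left 24 to 29 pooled sites found in all remaining replicates, in place of 23. With the shortened list of every replicate, 14 of the 30 ecdysone cascade genes had a promoter summit, beside 27.3% of all protein-coding genes. With 1 replicate left out of these lists 14 to 18 had one, beside 28.7% to 30.3% of all. No paired analysis was possible because there was 1 group. The authors' list length of 30000 and the absent read counts limit what low-ranked summits can show.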
